A study of Canis lupus familiaris with 4 samples.

Results

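The genes described here take up, store and regulate iron: TFRC, HFE, SLC11A2, FTH1, FTL, NCOA4, ACO1, IREB2, SLC25A37 and HMOX1. They were listed by symbol, and the list was picked for the differences of HFE and TFRC between exosome-treated and control libraries. Of the 10 listed genes 9 were measured in both deposited tables, among 11691 genes in all, and HMOX1 was not analysed here. The libraries hold messenger RNA of CD8+ T cells grown from blood mononuclear cells of healthy mixed-breed dogs for 14 to 20 days in IL-2 (2500 IU/mL) and 2-mercaptoethanol (50 µM). The exosome group (2 libraries, 1 per dog) received vesicles shed by CLBL-1, a dog cell line from a diffuse large B-cell lymphoma, and the control group (2 libraries, 1 per dog) received PBS. Every culture, controls included, therefore carried human IL-2 and 2-mercaptoethanol. The design text gives 50 µg/mL of exosomes, while the treatment label lists 50, 100 and 200 µg/mL.

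The libraries come in 2 pairs, each with its own deposited table. Pair 1 is labelled female and pair 2 male, and each pair is taken here as 1 dog from its shared number and sex label. All labels state 48 h of exposure. The column names instead give 24 h for pair 1 and 48 h for pair 2, so dog, sex and a possible difference in time cannot be told apart. With each treatment given to 2 dogs, the spread between dogs is known from 2 values only. Levels are scaled read counts, that is, reads per gene divided by 1 factor per library. They can be compared between libraries for the same gene but not between genes, since they are not corrected for gene length. Depth recovered from the scaled values ran from 9417298 to 12325953 reads. The 5 measured markers listed for CD8 T cells were CD3D, CD3E, CD3G, CD8A and CD8B. Their summed levels were 1160.1 and 2207 in the exosome libraries of pairs 1 and 2 and 1480.2 and 2344 in the control libraries. CD3D, CD3E, CD3G and CD8A were each lower with exosomes than without in both pairs. CD8B differed from them in pair 2, and stood at 72.7 and 528 with exosomes and at 73.4 and 479 without. The natural killer cell list, measured through 4 of 5 markers, summed to 943 and 182 with exosomes and to 555 and 169 without. The macrophage list, a cell type rich in iron genes, was measured through 1 of its 12 markers (CD68, 0.471 to 2.17), the erythroid list through 1 of 10 (EPB42, 2.67 to 4.24) and the B cell list through 2 of 6 (summed level 4.95 to 11.9). Because these are bulk libraries, fewer cells of a type and less RNA per cell cannot be told apart.

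Iron enters most cells bound to transferrin. TFRC, the transferrin receptor, carries it into endosomes, HFE is an MHC class I-like protein that binds the receptor and competes with transferrin, and SLC11A2 (DMT1) moves the freed iron into the cytosol. Ferritin, made of FTH1 heavy and FTL light chains, stores iron until the receptor NCOA4 delivers it to lysosomes. ACO1 and IREB2 are the iron regulatory proteins: in iron-poor human and mouse cells they bind hairpins in messenger RNAs, which stabilises the transcript of TFRC and blocks translation of both ferritin chains, so that ferritin protein can change without its transcript. T cells raise TFRC when they are activated and divide.

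Members that bring iron in differed from each other and between the dogs. TFRC (ENSCAFG00000012941) stood at 231 in the exosome library and 159 in the control library of pair 1. In pair 2 it stood at 81.5 in the exosome library and 142 in the control library. The exosome library was thus the highest of the 4 in pair 1 and the lowest of the 4 in pair 2, with both controls between them. The fold, exosome over control, was 1.45 in pair 1 (95% interval 1.37 to 1.54) and 0.574 in pair 2 (0.529 to 0.623). These intervals are exact (Clopper-Pearson) and cover counting error only, so they describe how well each library was counted and not how dogs vary. Over both dogs TFRC averaged 156 ± 106 with exosomes and 150.4 ± 12.0 without (SD, n = 2 each). The mean log2 difference, on the log2(value + 1) scale, was -0.13, and it was -0.87 without the exosome library of pair 1 and 0.62 without that of pair 2, in fits of 3 libraries with no term for the pair. Such opposite directions were common, at 39.7% of all genes.

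HFE (ENSCAFG00000010925) was counted with few reads, 64 to 282 per library, and its level was higher with exosomes in both dogs. It stood at 18.8 in the exosome library and 13.1 in the control library of pair 1, from 191 and 167 reads. In pair 2 the values were 22.2 with exosomes and 6.79 without, from 282 and 64 reads. Both exosome libraries lay above both controls, and the groups averaged 20.5 ± 2.36 with exosomes and 9.95 ± 4.46 without (SD, n = 2 each). The fold was 1.44 in pair 1 (1.16 to 1.78) and 3.26 in pair 2 (2.48 to 4.35). The larger fold of pair 2 went with the lowest control value of the 4 libraries, while the exosome values of the dogs were close. HFE and TFRC are the genes for which the list was picked, so these values are given as a description.

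SLC11A2, the divalent metal transporter, had the largest fold of the members in pair 1. Its level was 250.4 in the exosome library and 66.5 in the control library of pair 1. In pair 2 the level was 48.1 with exosomes and 33.4 without. The fold was 3.77 (3.48 to 4.08) in pair 1 and 1.44 (1.25 to 1.65) in pair 2. It was higher with exosomes in each dog, but the groups overlapped, because the control of pair 1 lay above the exosome library of pair 2. The mean log2 difference of SLC11A2 was 1.21, and it was 0.028 without the exosome library of pair 1 and 2.38 without that of pair 2. Of 4 natural killer cell markers, KLRD1 and FCER1G were also highest in the exosome library of pair 1, with KLRD1 at 666 and 124 with exosomes in pairs 1 and 2 against 213 and 85.0 without, and FCER1G at 181 and 15.4 with exosomes against 135 and 21.3 without. The other two were lower with exosomes in each pair, with NCR1 at 10.6 and 32.8 with exosomes against 33.2 and 42.6 without, and KLRB1 at 85.5 and 9.99 with exosomes against 173 and 19.6 without. The 4 markers summed to 943 and 182 with exosomes and 555 and 169 without. KLRD1 made up the largest part of this sum in each library, though the values are not corrected for gene length. Their part in the level of SLC11A2 or TFRC was not tested.

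**Figure D1:**
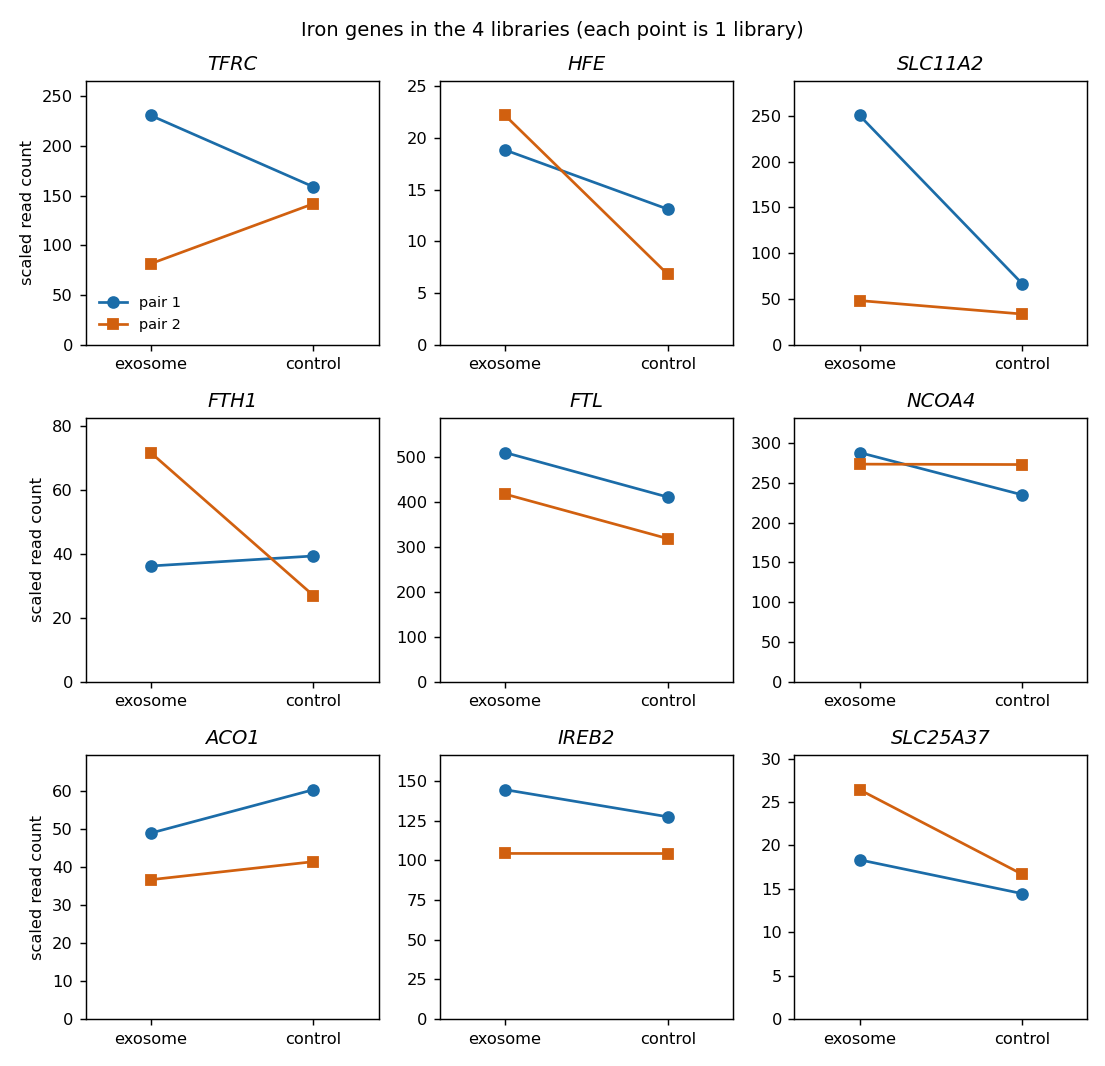
Scaled read counts of the 9 measured iron genes, with exosome libraries left and control libraries right in each panel. Circles joined by a line are pair 1, squares are pair 2, each point is 1 library and every axis starts at 0. The lines of TFRC and of the FTH1 row slope in opposite directions in the 2 dogs, whereas those of the other genes slope the same way. The lines of NCOA4 and IREB2 are nearly level in pair 2.

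Of the storage genes, the ferritin light chain had like folds in both dogs, while the heavy chain row did not. FTL stood at 510 in the exosome library and 411 in the control library of pair 1, and at 417 with exosomes and 318 without in pair 2. The groups did not overlap, and averaged 464 ± 65.4 with exosomes and 365 ± 65.3 without (SD, n = 2 each). The folds of FTL were nearly equal in the dogs, at 1.24 (1.19 to 1.29) in pair 1 and 1.31 (1.25 to 1.37) in pair 2.

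Heavy chain reads were split over 2 rows of the tables. The row with the symbol FTH1 (ENSCAFG00000030465), which carries 2 gene numbers, stood at 36.2 with exosomes and 39.3 without in pair 1, and at 71.6 with exosomes and 27.0 without in pair 2. Its fold was 0.92 in pair 1 (0.802 to 1.06) and 2.66 in pair 2 (2.31 to 3.07). A further row without a symbol, described in the files as ferritin heavy chain 1 (ENSCAFG00000015901), was found after the values were seen and held most of the heavy chain reads. It stood at 417 with exosomes and 423 without in pair 1, and at 304 with exosomes and 322 without in pair 2. The row named FTH1 thus held 7.99% of the reads of both rows in the exosome library and 8.51% in the control library of pair 1, and 19.1% and 7.73% in the exosome and control libraries of pair 2. With both rows summed, the fold was 0.981 (0.944 to 1.02) in pair 1 and 1.08 (1.03 to 1.13) in pair 2. The 2.66-fold value of pair 2 therefore belongs to the smaller row alone. Near-identical ferritin copies can exchange reads, so either row is uncertain by itself.

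NCOA4, the receptor that takes ferritin to lysosomes, stood at 288 with exosomes and 235 without in pair 1. In pair 2 it was 273.3 with exosomes and 272.8 without. The difference in pair 1 amounted to 1.23-fold (1.16 to 1.29), while the interval in pair 2 ran from 0.952 to 1.05. The controls of the dogs thus lay further apart than the exosome libraries, although both exosome values were above both controls.

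The transcripts of the iron regulatory proteins had folds between 0.81 and 1.13. ACO1, the protein that doubles as cytosolic aconitase when it holds an iron-sulfur cluster, stood at 48.9 with exosomes and 60.3 without in pair 1, and at 36.6 with exosomes and 41.4 without in pair 2. It was the only member with a lower value with exosomes in both dogs, with folds of 0.81 (0.723 to 0.909) and 0.885 (0.772 to 1.02) in pairs 1 and 2. IREB2, which iron-replete cells degrade, stood at 144 with exosomes and 127 without in pair 1, and at 104.3 with exosomes and 104.2 without in pair 2. Its fold was 1.13 (1.06 to 1.22) in pair 1, and in pair 2 the counting interval of 0.921 to 1.09 covered no change. SLC25A37, the mitoferrin that brings iron into mitochondria, stood at 18.3 with exosomes and 14.4 without in pair 1, and at 26.4 with exosomes and 16.7 without in pair 2. Both exosome libraries lay above both controls, with folds of 1.27 (1.03 to 1.57) and 1.59 (1.31 to 1.93) in pairs 1 and 2.

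**Figure D2:**
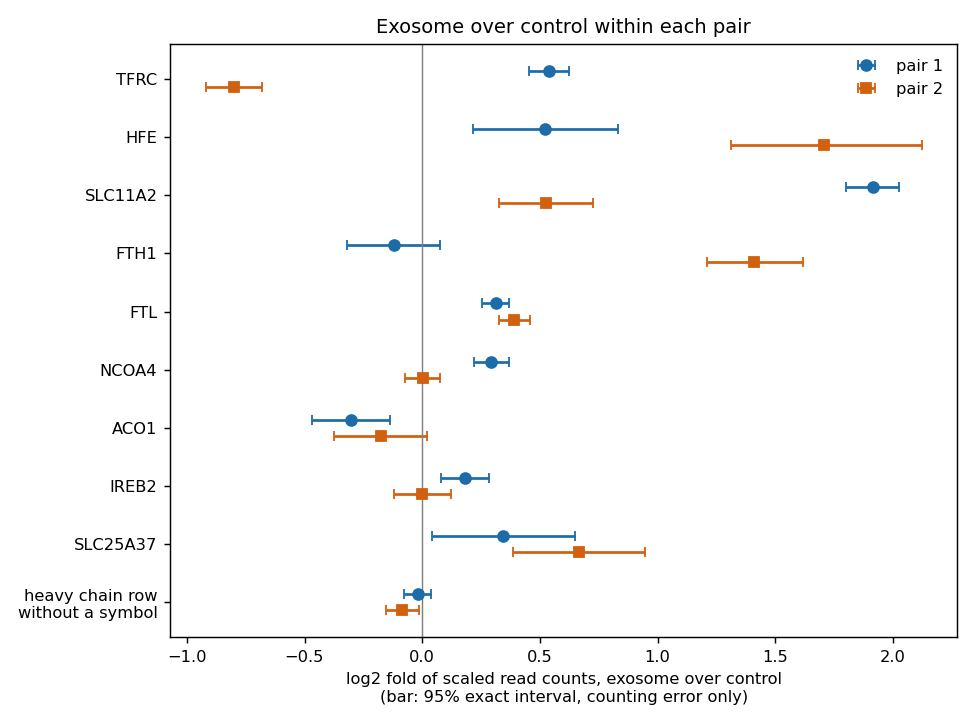
Log2 fold of scaled read counts, exosome over control, for each of the 9 iron genes and for the ferritin heavy chain row without a symbol, with pair 1 as circles and pair 2 as squares. Bars are 95% exact intervals for counting error within a pair. TFRC lies right of 0 in pair 1 and left of 0 in pair 2, and the row named FTH1 departs from 0 in pair 2 while the larger heavy chain row stays within 0.09 log2 units of 0.

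Counted over the 9 measured members, 6 were higher with exosomes in both dogs, a direction that 27.8% of all genes shared. ACO1 alone was lower in both, as were 32.5% of all genes, and TFRC and FTH1 differed in direction. For NCOA4, IREB2 and ACO1 the counting interval of pair 2 covered no change, as did that of the FTH1 row in pair 1. The 4 members HFE, FTL, NCOA4 and SLC25A37 had both exosome libraries above both controls (12.9% of all genes), and 0 had both below (14.3% of all genes). NCOA4 is among them only through 273.3 with exosomes against 272.8 without in pair 2. At least 2-fold differences were limited to SLC11A2 in pair 1, where 4.13% of all genes were that much higher, and to HFE and the FTH1 row in pair 2, where 3.18% were. No member was at least 2-fold lower, beside 7.79% of all genes in pair 1 and 3.28% in pair 2. The median log2 fold of the members was 0.31 in pair 1 and 0.39 in pair 2, beside -0.02 and -0.03 over all genes. The members were picked on this same contrast, so these counts describe the list and support nothing about it.

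Of 7930 genes with a symbol of their own and a mean level of at least 10, those with the pattern nearest to HFE over the 4 libraries were UNKL, JUND, ZFP36L2, PHYHD1 and YPEL3, at distances of 0.10 to 0.42 between centred log2(value + 1) values. UNKL, the nearest, stood at 27.2 and 29.3 with exosomes in pairs 1 and 2, against 18.0 and 9.98 without. Nearest to TFRC were ABHD5, EVI2B, DOCK5, MPC1 and ICOS, at distances of 0.23 to 0.31. ICOS, a costimulatory receptor of activated T cells, stood at 189.5 and 79.9 with exosomes and at 134.5 and 103 without, which repeats the order of TFRC in both dogs. With 4 libraries many genes come close by such a measure, and the likeness is a description only.

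Other genes of iron and heme handling were taken from a list of 95 symbols, of which 76 had a row of their own in both tables. Of these, 28 had higher values with exosomes in both dogs, 24 lower values in both and 24 opposite directions. Of all genes 27.8%, 32.5% and 39.7% did so. The median log2 difference of the 76 was -0.05 beside -0.01 over all genes. By limma with the pair as a block and Benjamini-Hochberg adjustment over all 11691 genes, 1 of the 76 fell and 0 rose. Of all genes 0.744% were called, 0.496% lower and 0.248% higher. Taking p under 0.05 without adjustment, 2 of the 76 lay higher (2.63%, beside 5.95% of all genes) and 5 lower (6.58%, beside 9.96% of all genes), all 5 in the group of DNA synthesis and repair. DESeq2 called the same gene and no other of the 76, while edgeR and limma-voom called 0. At p under 0.05 without adjustment edgeR had 11 (14.5%, beside 14.0% of all genes) and limma-voom 13 (17.1%, beside 14.9%).

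The gene that fell was RRM2, the di-iron subunit of ribonucleotide reductase, which makes deoxynucleotides. It stood at 39.1 and 145 with exosomes in pairs 1 and 2, against 125 and 311 without, a log2 difference of -1.38 ± 0.24 (SE, limma adjusted p = 0.0323). The SE is limma's moderated value, drawn mostly from the spread of all genes, with 1 residual degree of freedom. Its adjusted p was 0.154 by edgeR, 0.118 by limma-voom and 0.000104 by DESeq2. Over the alternatives with all 4 libraries it ran from 5.42e-07, by limma with genes of a mean level under 20 removed, to 0.999, by limma with no term for the pair. Leaving out 1 library, in fits that also had no term for the pair, gave log2 differences of -2.31 to -0.45. Those fits cannot show whether the call rests on 1 library, because the term for the pair was dropped as well. RRM2 belongs to a group of 10 genes of DNA synthesis and repair, listed for enzymes that depend on iron or iron-sulfur clusters. The group also holds RRM1, the other subunit of ribonucleotide reductase, so not every product carries iron itself. Of these, 7 had lower values with exosomes in both dogs, beside 32.5% of all genes. The median log2 fold of the 10 was -0.59 in pair 1 and -0.65 in pair 2, beside -0.02 and -0.03 over all genes. POLE, a replicative polymerase, stood at 39.1 and 106 with exosomes and 78.6 and 169 without (adjusted p = 0.096 by limma). BRIP1, an iron-sulfur helicase, stood at 6.61 and 16.1 with exosomes and 11.3 and 26.6 without (adjusted p = 0.151).

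Among 13 genes of mitochondrial iron and iron-sulfur assembly 0 were called by limma (1 at p under 0.05 without adjustment, higher). Of all genes 0.744% were called, and 5.95% lay higher and 9.96% lower without adjustment. A count of 0 in groups this small therefore says little about them, here and for the groups below. SLC25A28, the second mitoferrin, stood at 22.7 and 17.7 with exosomes in pairs 1 and 2, against 14.0 and 12.5 without, a log2 difference of 0.56 ± 0.23 (limma adjusted p = 0.251). Like SLC25A37 it had both exosome libraries above both controls. Among 9 genes of cytosolic iron-sulfur assembly 0 were called (0 also without adjustment). CIAO2B, a targeting factor, stood at 29.6 and 31.8 with exosomes and 23.0 and 22.0 without (limma adjusted p = 0.392), and NDOR1, an electron donor, at 38.4 and 29.8 with exosomes and 31.5 and 22.8 without (adjusted p = 0.56).

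Uptake and export outside the members was measured through 8 genes, of which limma called 0 (0 also without adjustment), beside 0.744% of all genes. STEAP3, the reductase that prepares endosomal iron for SLC11A2, stood at 14.9 and 4.01 with exosomes in pairs 1 and 2, against 33.1 and 3.71 without (limma adjusted p = 0.422). SLC39A14, a transporter of iron not bound to transferrin, stood at 26.8 and 30.4 with exosomes and 57.8 and 28.8 without (adjusted p = 0.424). Both were lower with exosomes in pair 1, where SLC11A2 and TFRC were higher, and their folds in pair 2 were 1.08 and 1.06. Of 4 genes of iron chaperoning and regulatory protein turnover 0 were called (0 also without adjustment). PCBP2, an iron chaperone, stood at 798 and 669 with exosomes and 573 and 580.3 without (adjusted p = 0.538). TAX1BP1, which takes part in ferritin turnover, stood at 518 and 357 with exosomes and 315 and 348 without (adjusted p = 0.518).

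Heme genes were not called by limma (0 also without adjustment), beside 0.744% of all genes called, which says little about so few genes. In the 8 genes of heme synthesis, ALAS1, the first enzyme of the pathway, stood at 48.3 and 68.3 with exosomes in pairs 1 and 2, against 38.5 and 58.4 without (limma adjusted p = 0.644). FECH, which inserts iron to complete heme, had both exosome libraries below both controls, at 56.0 and 39.4 with exosomes and 69.8 and 60.3 without (adjusted p = 0.365). In the 7 genes of heme transport and breakdown, SLC48A1, which exports heme from lysosomes, went in opposite directions, with folds of 0.608 in pair 1 and 2.33 in pair 2. BLVRB, a biliverdin reductase, stood at 3.85 and 8.65 with exosomes and 3.14 and 5.52 without (adjusted p = 0.45). FLVCR1, a heme exporter, stood at 15.8 and 21.0 with exosomes and 12.9 and 19.6 without (adjusted p = 0.784).

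NRF2 (NFE2L2) drives, and BACH1 represses, ferritin and other genes of the oxidative stress response. In their group of 9 measured genes limma called 0, beside 0.744% of all genes (1 at p under 0.05 without adjustment, higher, beside 5.95%). NFE2L2 stood at 182 and 48.6 with exosomes in pairs 1 and 2, against 97.3 and 43.4 without (limma adjusted p = 0.333). The cystine transporter SLC7A11 stood at 5.33 and 4.25 with exosomes and 3.69 and 2.12 without (adjusted p = 0.232), with both exosome values above both controls. Among 4 genes of lipid peroxidation, SAT1, a polyamine-degrading enzyme, stood at 64.8 and 31.2 with exosomes and 24.6 and 32.6 without (adjusted p = 0.324). Among 4 transcripts linked to other iron responsive elements, EPAS1 (HIF-2 alpha) stood at 121 and 48.2 with exosomes and 75.7 and 42.1 without (adjusted p = 0.414), and CDC42BPA at 14.0 and 25.3 with exosomes and 22.0 and 31.4 without (adjusted p = 0.366).

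**Figure D3:**
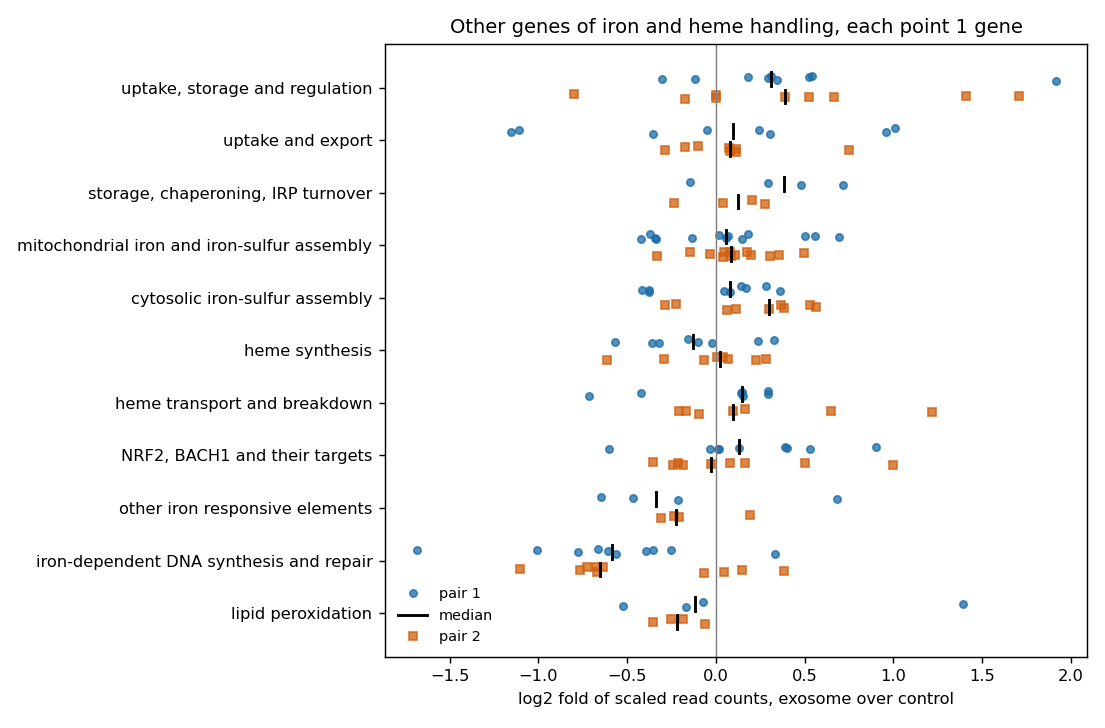
Log2 fold of scaled read counts, exosome over control, for the 9 measured iron genes (top line) and 76 other genes of iron and heme handling by group, each point 1 gene. Circles are pair 1, squares pair 2 and black bars the medians. The group of iron-dependent DNA synthesis and repair has its median at -0.59 in pair 1 and at -0.65 in pair 2, beside -0.02 and -0.03 over all genes.

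The difference between the dogs was tested apart from the treatment, in the same limma fit, as pair 2 minus pair 1. Each side of this contrast is 1 dog, so its standard errors and p-values do not measure how dogs vary. Sex and a possible difference in exposure time go with the dog. The members were not picked on this contrast, but they were picked from values of the same libraries. The differences of HFE and TFRC that led to the picking also enter the spread behind their p-values here. Of all genes 25.3% were called, 12.7% higher and 12.7% lower in pair 2. Of the 9 members 1 was called, SLC11A2, which was lower in pair 2. Its levels were 48.1 and 33.4 in the exosome and control libraries of pair 2 against 250.4 and 66.5 in those of pair 1, a log2 difference of -1.66 ± 0.30 (SE, limma adjusted p = 0.00131). With all 4 libraries but no term for the treatment the call was lost (limma adjusted p = 0.126). The lowest adjusted p over all alternatives was 1.28e-10. Leaving out 1 library, in fits that also had no term for the treatment, gave log2 differences of -2.61 to -0.71, the last without the exosome library of pair 1. Those fits cannot show whether the call rests on 1 library, because the term for the treatment was dropped as well.

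TFRC also had both libraries of pair 2 below both of pair 1, at 81.5 and 142 in the exosome and control libraries of pair 2 against 231 and 159 in those of pair 1. Its log2 difference of -0.83 ± 0.30 missed the threshold (limma adjusted p = 0.0595) and passed it by DESeq2 (0.0482), with a pseudocount of 5 (0.00716) and with low genes removed (0.00181). Over all alternatives the adjusted p of TFRC ran from 0.00181 to 0.621. ACO1 and IREB2 likewise had both libraries of pair 2 below both of pair 1, with log2 differences of -0.47 ± 0.23 and -0.38 ± 0.23 (adjusted p = 0.163 and 0.276 by limma). In all 4 of 9 members lay lower in pair 2 without overlap, beside 28.5% of all genes, and 0 lay higher, beside 28.3%. The log2 differences of HFE, FTH1, FTL, NCOA4 and SLC25A37 lay between -0.33 and 0.35 (smallest adjusted p = 0.322 by limma).

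**Figure D4:**
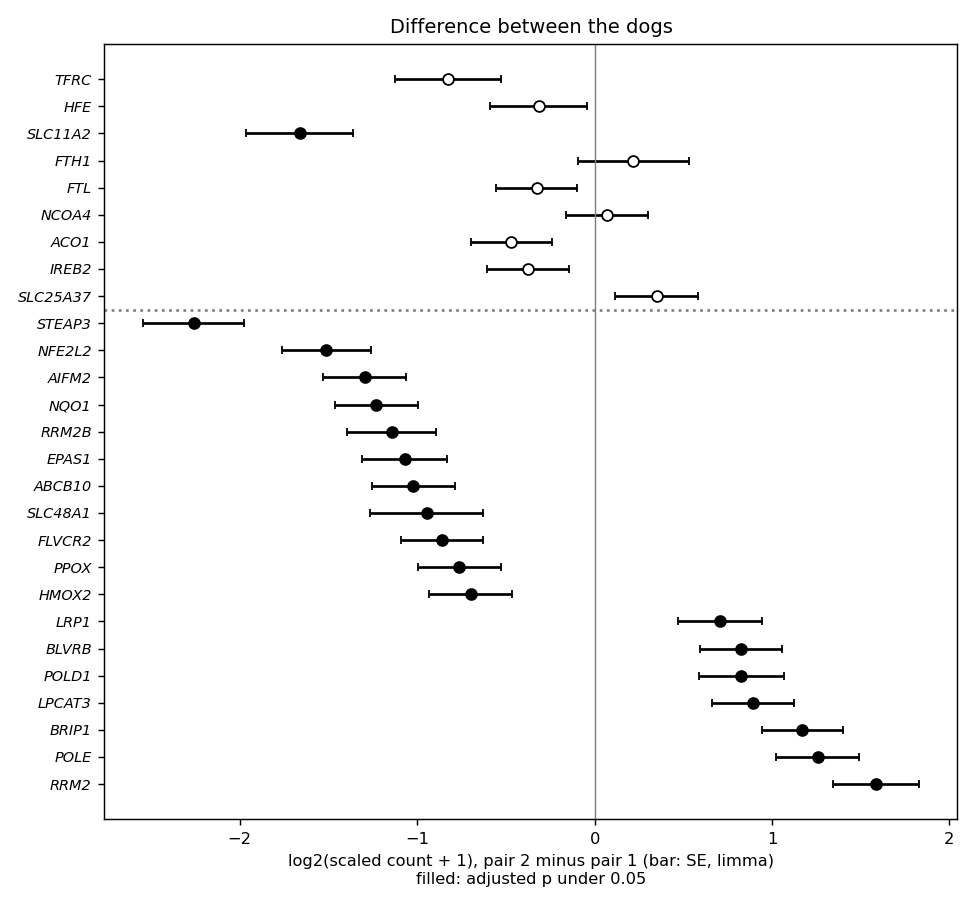
Difference between the dogs, pair 2 minus pair 1, on the log2(scaled count + 1) scale, for the 9 iron genes (above the dotted line) and the 18 called genes of the wider list. Bars are limma standard errors, which do not measure how dogs vary, as each pair is 1 dog. Filled circles have an adjusted p under 0.05. SLC11A2 at -1.66 is the filled circle above the dotted line.

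Of the 76 other iron and heme genes 18 were called between the dogs, 7 higher and 11 lower in pair 2. These are 23.7% of the list, near the 25.3% of all genes called, and the genes named next are described singly. Without the exosome or the control library of pair 2, in fits with no term for the treatment, 0 of these 18 were called. STEAP3, the reductase that works with SLC11A2, showed the largest difference of these, at 4.01 and 3.71 in the exosome and control libraries of pair 2 against 14.9 and 33.1 in those of pair 1 (log2 difference -2.26 ± 0.28, limma adjusted p = 7.22e-05). NFE2L2 stood at 48.6 and 43.4 in pair 2 against 182 and 97.3 in pair 1 (-1.51 ± 0.25, limma adjusted p = 0.000674). Its target NQO1 stood at 61.1 and 43.2 in pair 2 against 128 and 117 in pair 1 (-1.23 ± 0.23, limma adjusted p = 0.00181). Also lower in pair 2 were AIFM2, RRM2B, EPAS1, the mitochondrial transporter ABCB10, SLC48A1, FLVCR2, PPOX and HMOX2, the constitutive heme oxygenase, with log2 differences of -1.30 to -0.70.

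Of the 7 genes higher in pair 2, 4 belong to the 10 genes of DNA synthesis and repair, beside 12.7% of all genes called higher. RRM2B, of the same group, was called in the other direction, at -1.14 ± 0.25 (limma adjusted p = 0.005). RRM2 stood at 145 and 311 in the exosome and control libraries of pair 2 against 39.1 and 125 in those of pair 1 (1.59 ± 0.24, limma adjusted p = 0.000352). POLE, BRIP1 and POLD1 followed at 1.26, 1.17 and 0.83, and LPCAT3, BLVRB and LRP1 at 0.89, 0.82 and 0.71. CD8B, a chain of the CD8 coreceptor, also differed between the dogs, at 528 and 479 in pair 2 against 72.7 and 73.4 in pair 1. CD3D, CD3E, CD3G and CD8A likewise had both libraries of pair 2 above both of pair 1. The gap was small for CD3G, at 258 and 284 in pair 2 against 206 and 255 in pair 1. Of the natural killer cell markers KLRD1, FCER1G and KLRB1 had both libraries of pair 2 below both of pair 1. NCR1 went the other way in part, at 32.8 and 42.6 in the exosome and control libraries of pair 2 against 10.6 and 33.2 in those of pair 1. The part of these cell-type markers in the differences between the dogs was not tested.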

How the data were processed

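The members and lists were chosen with earlier results of these data known. The submitters' processing notes name Trimmomatic 0.38, HISAT2 2.1.0, featureCounts 1.6.0 and CanFam3.1; no settings or strandedness are stated in them. The deposited log shows 30951 genes reduced to 11838 and DEGseq run by the authors on 1 exosome and 1 control library at a time. Values deposited by the authors are a signal: reads per gene over a factor of the library. A mean score, log2 fold changes and p-values of single-library comparisons, also deposited by the authors, were not used.

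Each value (100%) was a whole multiple of its column's smallest within 0.001, which returned the reads. The main test was limma 3.58.1 (R 4.3.3) on log2(value + 1) over 11691 genes, with the pair as a block, 1 residual and 11.35 prior degrees of freedom. Such folds understate changes of low genes. The tables themselves pair the libraries, and deviations from group means correlated at 0.818 within pairs, equal for both by construction. On the recovered reads edgeR 4.0.16, limma-voom and DESeq2 1.42.0 served as alternatives.

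Named genes are all members and, per group of the wider list, genes called in either comparison plus the 2 largest mean log2 differences among genes whose higher library held 50 or more reads in each pair. Rows shared with another symbol were left out. One gene that this rule names is not reported here. Coordinates and sequences are not shown, since neither positions nor a genome of the build were used here.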

Additional observations from a re-analysis of the deposited data

Results flagged for a closer look

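Of the members and named genes, 11 had opposite directions in the 2 dogs. Over all genes 39.7% had them, but named genes were picked partly for large mean differences, so the shares cannot be compared. With 1 library per arm in a dog, the difference between dogs was not tested. Folds are exosome over control. TFRC had 0.574 in pair 2 and 1.45 in pair 1. The FTH1 row had 2.66 in pair 2 and 0.92 in pair 1, and with both heavy chain rows summed the folds were 1.08 and 0.981. SLC48A1 had 2.33 in pair 2 and 0.608 in pair 1, from levels under 10. RRM2B had 1.31 in pair 2 and 0.676 in pair 1, also from levels under 10. SAT1 had 0.958 in pair 2 and 2.63 in pair 1. STEAP3 had 1.08 in pair 2 and 0.45 in pair 1, and SLC39A14 had 1.06 and 0.464. ABCB10 had 1.03 in pair 2 and 0.772 in pair 1. PPOX had 1.22 and 0.931, HMOX2 0.89 and 1.11, and FLVCR2 0.867 and 1.11, in the same order.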

How the results depend on the processing

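With 2 dogs, the calls depended on the test. For exosome against control, limma called 87 genes of all and 1 of the 76 wider iron genes. DESeq2 called 169 genes, a filter at a mean value of 20 gave 603 and 4, and a pseudocount of 5 gave 610 and 3. edgeR, limma-voom, no replicate block, a pseudocount of 0.1 and values scaled to equal sums each gave 0 and 0, with 1640, 1738, 209, 1571 and 1486 genes of all at an unadjusted p under 0.05. Leaving out 1 library, in fits with no block, gave 0 to 0 genes for both counts (65 to 368 of all at an unadjusted p under 0.05). Between the dogs, 2958 genes, 1 member and 18 wider iron genes were called. Without the replicate block these were 1364, 0 and 6, and leaving out 1 library gave 546 to 1885, 0 to 1 and 0 to 9. Values scaled to equal sums gave 1944 genes. DESeq2, the filter and a pseudocount of 5 called 2 members each, SLC11A2 and TFRC. Of 20 single-gene calls named, 13 stayed with edgeR, 13 with DESeq2, 4 and 10 without the exosome and the control library of pair 1, and 0 without either library of pair 2, and all 20 kept their direction in every alternative in which they were measured. The fits of the dogs without 1 library had no term for the treatment, so their pair differences take in part of the treatment difference. In such fits the pair difference turned for FTH1 without the exosome library of pair 2 (-0.47, range -0.47 to 0.91). It also turned for HFE without the control of pair 2 (0.47, range -1.10 to 0.47) and for NCOA4 without the control of pair 1 (-0.076, range -0.076 to 0.22). No alternative moved the median log2 difference of all genes by over 0.1. The causes were not tested.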

Other observations

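Iron-binding genes outside the lists were looked up by their description after the values were seen. LTF, lactotransferrin, an iron-binding protein of neutrophil granules and secretions, stood at 11.2 and 10.6 in the exosome and control libraries of pair 2 against 351 and 487 in those of pair 1. Its difference between the dogs was -5.12 ± 0.24 on the log2 scale (SE, limma adjusted p = 3.24e-08), lower in both libraries of pair 2, and its difference between exosome and control was -0.20 ± 0.24 (limma adjusted p = 0.77). CISD2, an iron-sulfur protein of the outer mitochondrial and endoplasmic reticulum membranes, stood at 39.3 with exosomes and 15.5 without in pair 1, and at 9.75 with exosomes and 15.6 without in pair 2. Its direction was that of TFRC in both dogs. The folds of CISD2 were 2.55 (2.14 to 3.03) in pair 1 and 0.625 (0.488 to 0.799) in pair 2, with intervals for counting error only. A further light chain row, LOC102155200, held 34 to 44 reads per library, beside 2999 to 5307 for FTL.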
